A study of Mus musculus with 19 samples.

Results

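The receptors that steer leukocytes along chemokine and related gradients were followed in Kupffer cells (KCs, the resident macrophages of the liver sinusoids) that had developed from monocytes. They comprised 7 genes chosen by name, Ccr1, Ccr2, Ccr3, Ccrl2, Cx3cr1, Cxcr4 and Cmklr1, out of 19938 genes read by a probeset (a set of array probes summarised into 1 value) with a single gene symbol. Each of the 7 had 1 such probeset and shared none with another gene, so the choice of the brightest probeset left no alternative. Values are log2 expression, on which a difference of 1 is a 2-fold difference. Levels are compared only within a gene, since probesets differ in brightness and how bright an empty probe is on these arrays is not known.

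Sorted KCs from livers of mice aged 6 to 12 weeks were measured on 19 arrays, 1 per sample. Monocyte-derived KCs (mo-KCs) came from KC-DTR mice 30 days (5 arrays) and 15 days (3 arrays) after 50 ng of diphtheria toxin (DT). Embryonic KCs (em-KCs, 11 arrays) came from untreated KC-DTR mice (3 arrays), from WT littermates of that colony 30 days after DT (2 arrays), 15 days after DT (2 arrays) or without DT (1 array), and from WT mice (3 arrays). In KC-DTR mice a YFP and human DT receptor cassette sits behind the coding part of Clec4f, so that only cells which transcribe Clec4f are sensitive to the toxin. The sorted cells carried CD45, Clec4F, the macrophage antigen encoded by Adgre1 and intermediate CD11b, and lacked Ly6C, Ly6G and SiglecF, so that earlier, Clec4F- stages of conversion were not measured. The labels call the arrays of a condition biological replicates, and no source used here says whether livers were pooled.

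The cells carried KC transcripts in all groups. The mean over 15 KC markers was 10.92 to 11.28 in day 30 mo-KCs, 10.98 to 11.11 in day 15 mo-KCs and 11.61 to 11.73 in em-KCs, and 6 of the 15 fell at day 30 and 4 at day 15 (limma). Clec4f, the targeted gene, was 10.66 to 12.29 in day 30 mo-KCs, 12.16 to 12.21 in day 15 mo-KCs and 12.17 to 12.67 in em-KCs. One grouping that no label names crossed the others: in 6 arrays (day 30 mo-KC replicates 3 to 5 and the 3 WT em-KC arrays) the Y-linked genes averaged 3.97 to 4.18, against 7.33 to 7.83 in the other 13. No label gives the sex of the mice or the batch of an array, and the receptors were therefore also tested inside each of these sets. All day 15 mo-KC arrays lay in the set of 13.

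Chemokine receptors are G protein-coupled receptors that make a leukocyte move up a gradient of their ligand. CCR2, the receptor of CCL2 and CCL7, brings Ly6Chi monocytes out of the bone marrow and into tissue and is lost as they mature. CX3CR1, the receptor of the membrane-bound chemokine CX3CL1, marks monocytes and many tissue macrophages and is low in the KCs of adult mice. CCR3, the receptor of the eotaxins, is best known from eosinophils, and CXCR4, the receptor of CXCL12, retains cells in the bone marrow.

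At day 15 after DT, 4 of the 7 receptors rose over em-KCs, Ccr2, Ccr3, Cx3cr1 and Ccr1. At day 30 the count was 2 of 7, Ccr3 and Cx3cr1, and none of the 7 fell at either day. Ordered from the highest difference to the lowest at day 15 over all 19938 genes, with the strongest rise first, Ccr2 had rank 1, Ccr3 rank 2, Cx3cr1 rank 3 and Ccr1 rank 6. These calls are from limma with Benjamini-Hochberg adjustment over all genes at a threshold of 0.05, and the same threshold called 0.787% of all genes at day 30 and 0.502% at day 15. The median difference over the 7 receptors was 0.61 at day 30 and 1.53 at day 15, beside -0.017 and -0.014 over all genes. In bulk RNA such as this, fewer cells with a transcript and less of it per cell cannot be told apart. Both days were compared with the same 11 em-KC arrays, and their calls are therefore not independent of each other. Over the mean of both days, 4 of the 7 rose, Ccr1, Ccr2, Ccr3 and Cx3cr1, where 1.19% of all genes were called.

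**Figure D1:**
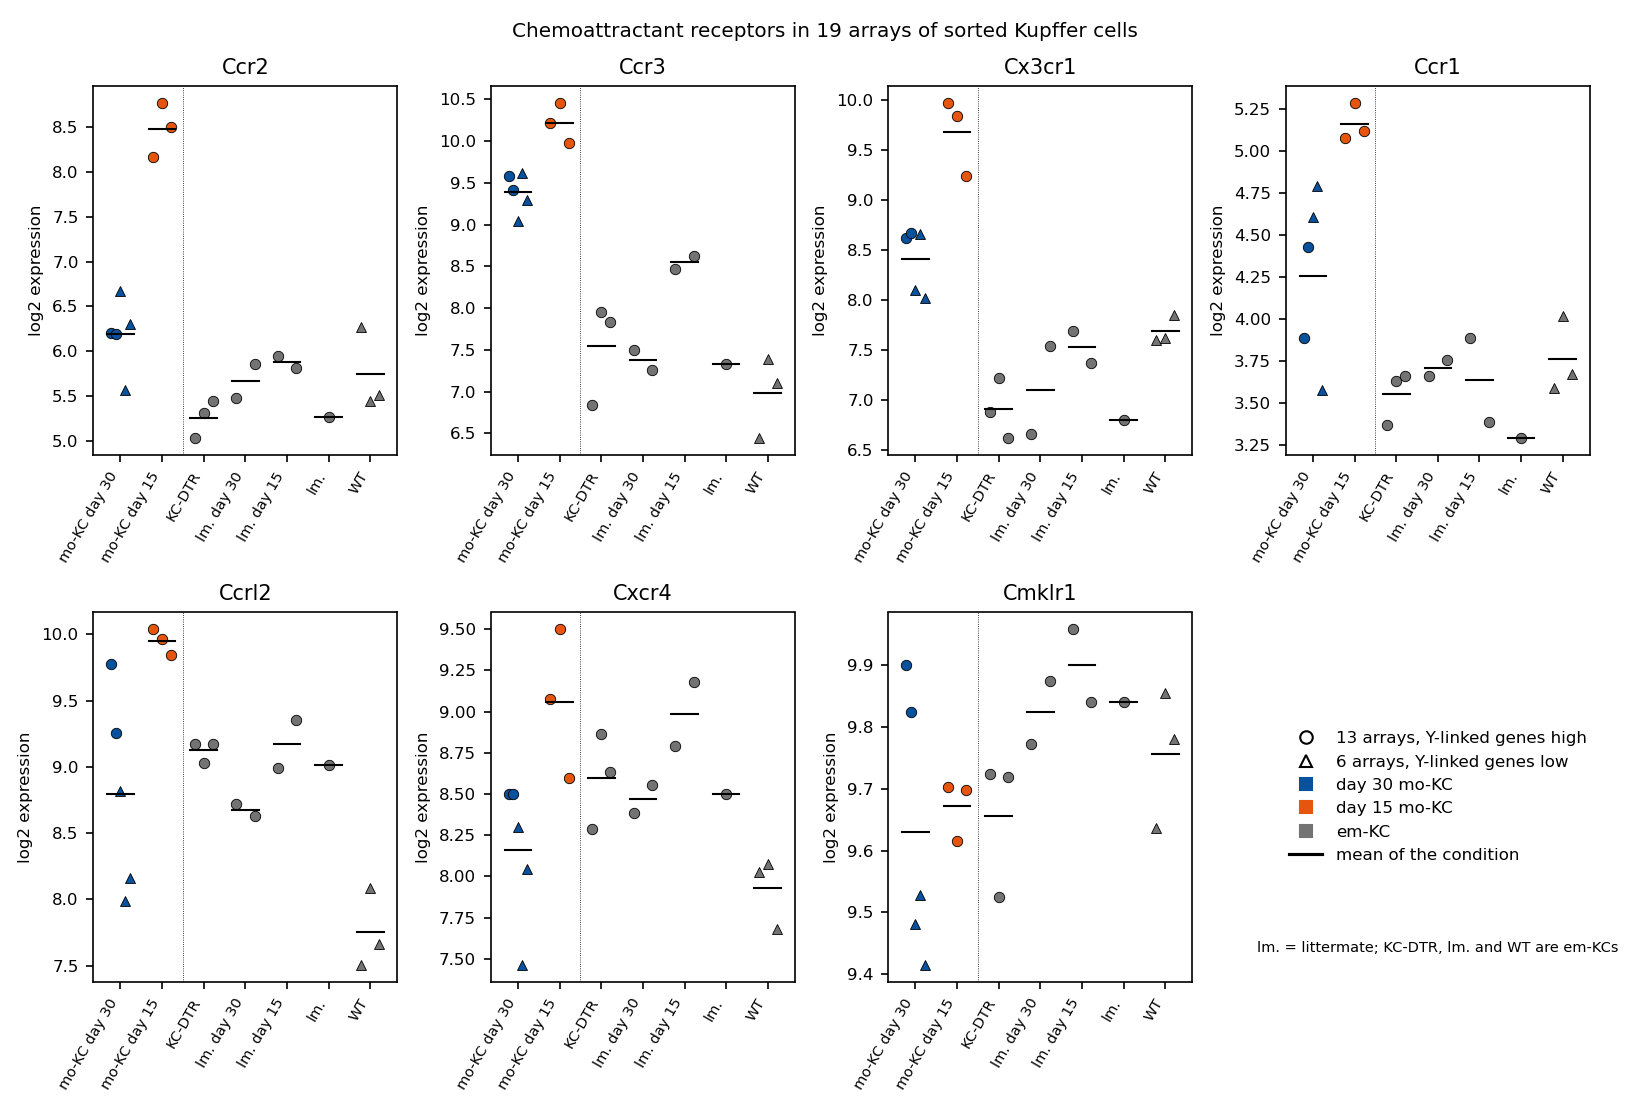
Log2 expression (vertical axis) of each receptor on every array, by condition (horizontal axis), with mo-KCs left of the dotted line, a bar at the mean of each condition and triangles for the 6 arrays with low Y-linked genes. Ccr2, Ccr3, Cx3cr1 and Ccr1 are high in all 3 day 15 mo-KC arrays, Ccr3 and Cx3cr1 stay above every em-KC array at day 30, and the triangles lie low for Ccrl2 and Cxcr4.

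Ccr2 (chr9:124101918-124109140 of GRCm38.p6) was the receptor that separated the days. It was 6.20, 6.19, 6.67, 5.57 and 6.30 in day 30 mo-KC replicates 1 to 5, and 8.17, 8.77 and 8.50 in the day 15 mo-KCs. The em-KC arrays ran from 5.03 over a median of 5.48 to 6.27. Every day 15 array lay at least 1 log2 unit above every other array, whereas the day 30 arrays overlapped the em-KCs, with replicate 4 near the em-KC median. The difference from em-KCs was 0.61 ± 0.18 (SE) at day 30 (adjusted p = 0.125 from limma), and 2.90 ± 0.21 at day 15 (adjusted p = 2.4e-08), which is 7.47-fold. Without WT em-KC replicate 1, the highest em-KC array, the day 30 difference was 0.68 and passed the threshold (adjusted p = 0.0496 from limma).

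Set directly against each other, day 30 mo-KCs held 4.90-fold less Ccr2 than day 15 mo-KCs, a log2 difference of -2.29 (95% confidence interval -2.79 to -1.80, adjusted p = 2.7e-05 from limma). Ccr2 was 1 of 4 genes of all 19938 called between the days, or 0.0201%. The others were Ptgs2 (-1.27), the inducible cyclooxygenase, and, higher at day 30, the B cell chemoattractant Cxcl13 (2.57) and the phosphatidylserine receptor Timd4 (1.46), a marker of KCs. Within the set of 13 arrays, with 2 day 30 mo-KC arrays, the Ccr2 difference was -2.28 (adjusted p = 5.7e-04 from limma), where 0.0301% of all genes were called. The study's methods name a Student's t-test for comparing groups, analysis of variance for comparisons of multiple groups, and no test for the arrays. The analysis of variance was not run here. By the t-test on the same values (called the methods' t-test), the difference between the days did not pass after adjustment (adjusted p = 0.690), nor did any other gene.

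Cx3cr1 (chr9:120048683-120068296) was raised at both days. It was 8.61, 8.67, 8.10, 8.66 and 8.02 in day 30 mo-KC replicates 1 to 5 and 9.97, 9.84 and 9.24 in the day 15 mo-KCs. In em-KCs it ran from 6.61 over a median of 7.36 to 7.85. The 3 groups did not overlap, and the day 30 arrays filled the space between the others. The rise over em-KCs was 1.16 ± 0.20 (SE) at day 30 (2.23-fold, adjusted p = 0.0038 from limma), and 2.43 ± 0.24 at day 15 (5.38-fold, adjusted p = 2.8e-06). Day 30 mo-KCs were below day 15 mo-KCs by a difference of -1.27, which did not pass the threshold (adjusted p = 0.339 from limma).

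Ccr1 (chr9:123962126-123968692), a receptor of CCL3 and CCL5 shared by monocytes and neutrophils, had a log2 level under 6 on every array. It was 3.89, 4.43, 4.61, 4.79 and 3.58 in day 30 mo-KC replicates 1 to 5 and 5.08, 5.29 and 5.12 in the day 15 mo-KCs. In em-KCs it ran from 3.29 over a median of 3.66 to 4.02. The day 15 arrays stood clear of all others, and day 30 replicates 2 to 4 lay above the em-KCs while replicates 1 and 5 lay among them. The rise at day 15 was 1.53 ± 0.19 (SE, adjusted p = 5.0e-05 from limma), which is 2.89-fold. At day 30 the difference was 0.63 ± 0.15 and just missed the threshold (adjusted p = 0.0592 from limma). It passed without day 30 mo-KC replicate 5 (0.80, adjusted p = 0.0062), without replicate 1 (0.72, adjusted p = 0.0285) and without WT em-KC replicate 2 (0.67, adjusted p = 0.0383). With the mean of hepatocyte markers as a covariate it passed as well (0.66, adjusted p = 0.0263 from limma).

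Ccr3 (chr9:124017825-124031692) was the receptor with the highest difference from em-KCs at day 30, with rank 2 among all genes ordered from the strongest rise. It was 9.59, 9.41, 9.05, 9.62 and 9.30 in day 30 mo-KC replicates 1 to 5 and 10.22, 10.46 and 9.98 in the day 15 mo-KCs. The em-KC arrays ran from 6.44 over a median of 7.39 to 8.63, the widest spread of the 4 receptors that rose. Again the 3 groups did not overlap. The rise was 3.65-fold at day 30 (adjusted p = 3.5e-04 from limma), and 6.48-fold at day 15 (adjusted p = 2.6e-05). The difference between the days was -0.83 (95% confidence interval -1.56 to -0.10, adjusted p = 0.920 from limma).

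The high end of the Ccr3 values in em-KCs belonged to 1 condition. The littermates 15 days after DT had 8.47 and 8.63, while the other 9 em-KC arrays lay between 6.44 and 7.96. Against those day-matched littermates the Ccr3 difference of day 15 mo-KCs was 1.67 (adjusted p = 0.0131 from limma), in place of 2.70 against all em-KCs. At day 30 the littermates had 7.50 and 7.26, and the difference from them was 2.02 (adjusted p = 0.0013 from limma).

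Ccrl2 (chr9:111054834-111057518) encodes a non-signalling receptor that binds chemerin and presents it to CMKLR1. It was 9.78, 9.25, 8.82, 7.99 and 8.16 in day 30 mo-KC replicates 1 to 5 and 10.04, 9.97 and 9.84 in the day 15 mo-KCs. In em-KCs it ran from 7.51 over a median of 8.99 to 9.36. The day 15 arrays lay above all em-KCs, and the day 30 arrays spread over nearly the whole em-KC range. Neither difference passed the threshold, with 0.13 ± 0.30 (SE) at day 30 (adjusted p = 0.897 from limma) and 1.28 ± 0.36 at day 15 (adjusted p = 0.192). The em-KC arrays themselves were split, since the WT arrays had 7.51, 8.09 and 7.67 and the other em-KCs 8.63 to 9.36.

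Cxcr4 (chr1:128588199-128592299) followed the same split. It was 8.50, 8.50, 8.30, 7.46 and 8.04 in day 30 mo-KC replicates 1 to 5 and 9.08, 9.50 and 8.59 in the day 15 mo-KCs. In em-KCs it ran from 7.68 over a median of 8.50 to 9.18, with the WT arrays at 8.03, 8.08 and 7.68. Both mo-KC groups overlapped with em-KCs. The differences were -0.29 ± 0.21 (SE) at day 30 (adjusted p = 0.600 from limma) and 0.60 ± 0.25 at day 15 (adjusted p = 0.686).

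Cmklr1 (chr5:113612355-113650475), the signalling receptor of chemerin, was the steadiest of the 7. It was 9.90, 9.82, 9.48, 9.53 and 9.42 in day 30 mo-KC replicates 1 to 5 and 9.70, 9.61 and 9.70 in the day 15 mo-KCs. In em-KCs it ran from 9.52 over a median of 9.78 to 9.96. The differences were -0.15 at day 30 (95% confidence interval -0.32 to 0.03) and -0.10 at day 15 (-0.31 to 0.11). Both intervals lay within 1.5-fold of em-KCs. Among the day 30 arrays, replicates 1 and 2 of the set of 13 were the higher ones and replicates 3 to 5 of the set of 6 the lower.

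**Figure D2:**
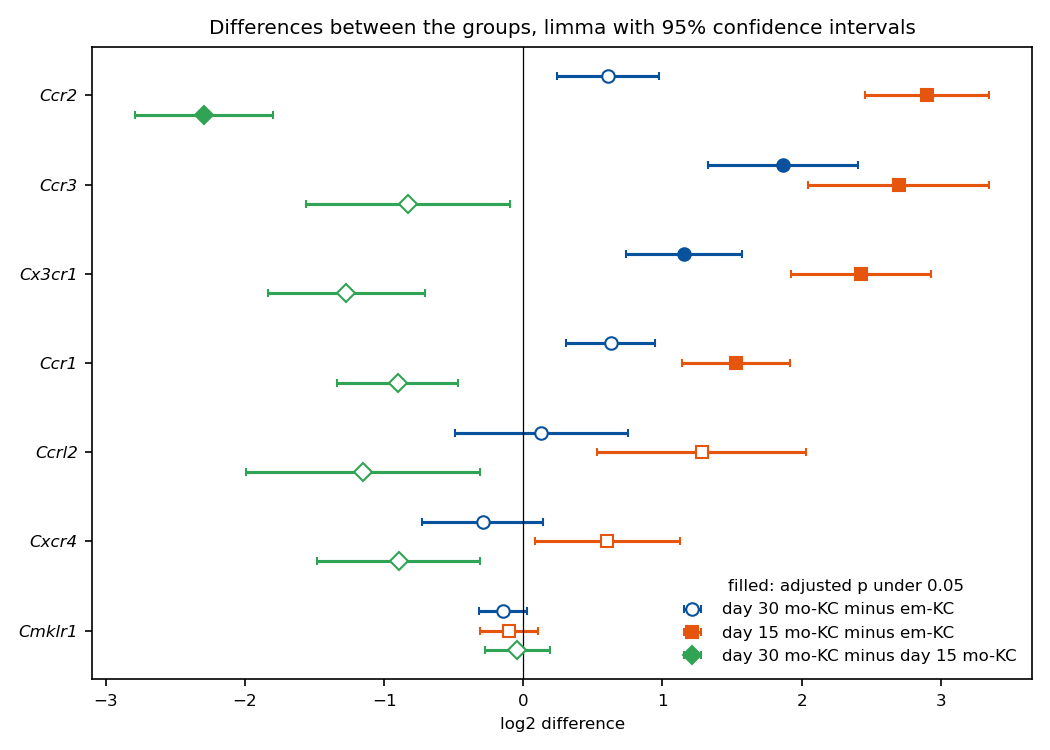
Log2 differences (horizontal axis) with 95% confidence intervals from limma for each receptor (vertical axis), for day 30 mo-KCs minus em-KCs, day 15 mo-KCs minus em-KCs and day 30 minus day 15 mo-KCs, filled where the adjusted p was under 0.05. Ccr2 has the largest difference at day 15 (2.90) and the only called difference between the days (-2.29), while Ccr3 keeps 1.87 at day 30.

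Counted by arrays, the receptors fell into 3 patterns. Ccr3 and Cx3cr1 were above every em-KC array at both days, Ccr1, Ccr2 and Ccrl2 only at day 15, and Cxcr4 and Cmklr1 at neither. That made 2 of 7 without overlap at day 30 and 5 of 7 at day 15, where 0.552% and 1.81% of all genes did not overlap, and 2 of 7 with the days together (0.371%). Between the days, 6 of the 7 receptors, all but Cmklr1, had every day 30 array below every day 15 array, where 3.2% of all genes did not overlap in either direction. Of these 6 only Ccr2 passed the test, and the other differences were -0.83 to -1.27 on the log2 scale. All day 15 arrays but only 2 day 30 arrays lay in the set of 13, so these differences mix day with array set. Within the 13 arrays Ccrl2 was -0.44 and Cxcr4 -0.56, in place of -1.15 and -0.90 over all arrays. Ccr3 was -0.72, Cx3cr1 -1.04 and Ccr1 -1.002 there, and only Ccr2 passed (limma).

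The same receptors rose when mo-KCs were set against single em-KC conditions. Against untreated KC-DTR em-KCs, of the same genotype, 2 of 7 receptors rose at day 30 (Ccr3 by 1.85 and Cx3cr1 by 1.51), where 0.366% of all genes were called. At day 15 against the same arrays 4 of 7 rose (0.391% of all genes), Ccr2 by 3.22, Cx3cr1 by 2.78, Ccr3 by 2.68 and Ccr1 by 1.61. Against littermates at the same day after DT, which shared the toxin but kept their em-KCs, the calls fell on the same genes. They were Ccr3 and Cx3cr1 (1.32, adjusted p = 0.0423 from limma) at day 30, where 0.135% of all genes were called. At day 15 they were Ccr2 (2.60), Cx3cr1 (2.15), Ccr3 (1.67) and Ccr1 (1.52), where 0.221% were called. The littermate groups held only 2 arrays each.

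Among em-KCs, the WT arrays stood apart from the 8 arrays of the KC-DTR colony. In WT em-KCs 3 of 7 receptors fell (limma), Ccrl2 by 1.24, Ccr3 by 0.72 and Cxcr4 by 0.71, and Cx3cr1 differed by 0.61 without passing the threshold (adjusted p = 0.0525 from limma). In the fit of group by array set, which compares the same em-KC arrays, the call of Ccr3 was lost (-0.75, adjusted p = 0.0642 from limma) and Cx3cr1 passed (0.59, adjusted p = 0.0474). That comparison called 4914 of the 19938 genes. In the same WT arrays 15 of 24 immediate-early genes fell and 14 of 16 hepatocyte markers rose (limma). The hepatocyte markers averaged 9.68 to 9.94 in WT em-KCs and 7.92 to 8.81 in the other em-KCs, and the immediate-early genes 7.79 to 7.97 in WT em-KCs and 8.84 to 9.55 in the other em-KCs. The part of either in the receptor values was not tested. The comparison of WT with the other em-KCs in the fit of all 7 conditions called 16.5% of all genes. The 3 WT arrays also make up 3 arrays of the set of 6, so colony and set cannot be told apart here. Untreated KC-DTR em-KCs were also set against the mean of the 3 littermate conditions, with and without DT. There 0 of 7 receptors and 0% of all genes were called by limma, and none of the 7 had an unadjusted p under 0.05. Ccr3 averaged 8.55 in littermates 15 days after DT, 7.38 in those 30 days after DT and 7.34 in the single untreated one. DT-treated littermates of both days, weighted equally, were then set against that untreated array. There Ccr3 differed by 0.63 (95% confidence interval -0.12 to 1.37) and Cx3cr1 by 0.52 (-0.18 to 1.22), and the lone array was assumed to vary like the others.

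Within the array sets Ccr3 kept its rise at day 30 and Cx3cr1 kept it in 1 set. Ccr3 differed by 1.77 within the 13 arrays (2 day 30 mo-KC against 8 em-KC arrays, adjusted p = 0.0329 from limma) and by 2.34 within the 6 arrays (3 against 3, adjusted p = 0.0046). Cx3cr1 differed by 1.55 within the 13 arrays (adjusted p = 0.0105) and by 0.57 within the 6 (adjusted p = 0.121 from limma). In the set of 6, Cx3cr1 was 8.02 to 8.66 in day 30 mo-KCs and 7.60 to 7.85 in WT em-KCs. Thus 2 of 7 receptors were called within the 13 arrays and 1 of 7 within the 6, where 0.326% and 4.15% of all genes were. A test of the difference between the sets called 0 of 7 (4.72% of all genes), with Cx3cr1 at -0.98 (adjusted p = 0.130) and Cmklr1 at -0.36 (adjusted p = 0.154), the 2 of the 7 with an unadjusted p under 0.05.

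Cmklr1, which was not called, differed by 0.08 within the 13 arrays and by -0.28 within the 6. Ccrl2 was not called over all arrays and was called in some of the fits by set. Its difference at day 30 was 0.13 over all arrays, 0.50 within the 13 and 0.57 within the 6. With the array set as a block in the fit it was 0.53 at day 30 (adjusted p = 0.0476 from limma) and 0.94 at day 15 (adjusted p = 0.0036), so that 3 and 5 of the 7 receptors were called, where 2.58% and 0.843% of all genes were. Within the 13 arrays the day 15 difference was 0.94 (adjusted p = 0.0020 from limma), and 5 of 7 were called with 1.16% of all genes. Cxcr4 did not pass in any of these fits.

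**Figure D3:**
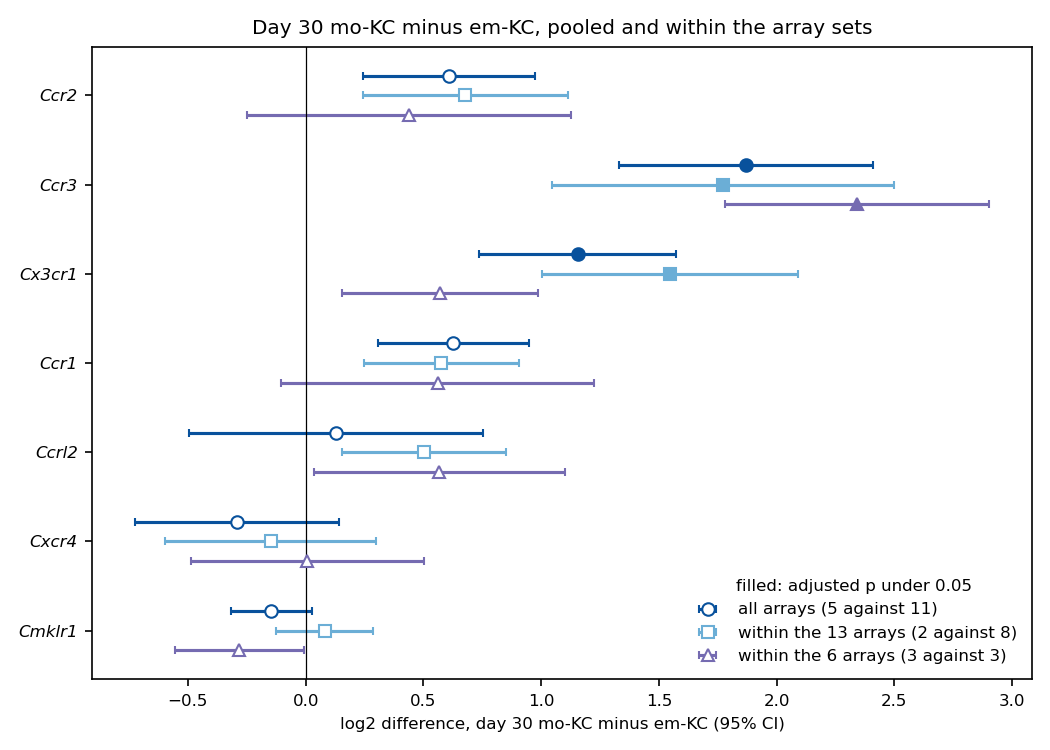
Day 30 mo-KC minus em-KC log2 differences (horizontal axis) with 95% confidence intervals from limma for each receptor (vertical axis), over all arrays, within the 13 arrays and within the 6 arrays, filled where the adjusted p was under 0.05. Ccr3 is filled in all 3 (1.87, 1.77 and 2.34), Cx3cr1 is smaller within the 6 arrays (0.57), and Ccrl2 moves from 0.13 over all arrays to 0.50 and 0.57 within the sets.

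Ccrl2 and Cxcr4 moved with a list of immediate-early genes, transcripts such as Fos and Egr1 that cells switch on within minutes of handling or activation. The mean over 24 of these genes was 7.66 to 9.63 in day 30 mo-KCs, 9.32 to 9.66 in day 15 mo-KCs and 7.79 to 9.55 in em-KCs, and in WT em-KCs it was 7.79 to 7.97. None of the 24 was called at day 30 or day 15 by limma or by the methods' t-test, with 2 and 1 of them at an unadjusted p under 0.05 (limma). Across the 19 arrays the correlation of this mean was 0.88 with Ccrl2 and 0.79 with Cxcr4, and 0.93 and 0.73 once group means were taken out. For Ccr1, Ccr2 and Cx3cr1 it was 0.10 to 0.25 over the arrays and -0.26 to -0.20 without group means. For Ccr3 it was 0.30 over the arrays and 0.52 without group means, and for Cmklr1 it was 0.40 and 0.45. These are descriptions of 19 arrays that share the normalization and the array sets, and the part of the immediate-early genes in the receptor values was not tested.

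**Figure D4:**
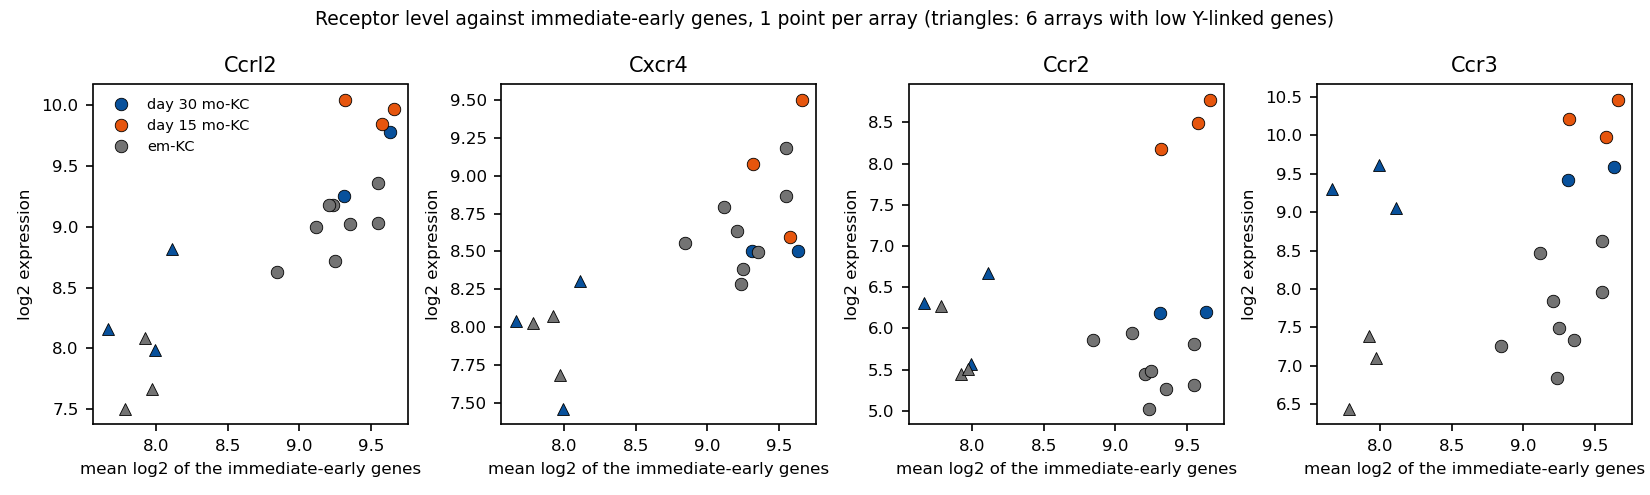
Log2 expression of Ccrl2, Cxcr4, Ccr2 and Ccr3 (vertical axes) against the mean log2 value of 24 immediate-early genes (horizontal axes), 1 point per array, coloured by group, with triangles for the 6 arrays with low Y-linked genes. Ccrl2 and Cxcr4 climb with the immediate-early genes (correlations of 0.88 and 0.79 over 19 arrays). Ccr2 stands clear of em-KCs only in day 15 mo-KCs, and Ccr3 in mo-KCs of both days. The correlation of Ccr3 was 0.30 over the arrays and 0.52 without group means.

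The rest of the chemokine receptor family did not follow. Of 13 other measured chemokine receptors, 0 were called at day 30 or day 15 by limma or by the methods' t-test, with 2 at an unadjusted p under 0.05 at each day (limma). Ccr1l1, a close relative of Ccr1 in the same gene cluster, differed most, with 0.45 at day 30 (adjusted p = 0.359 from limma) and 1.05 at day 15 (adjusted p = 0.0661), and it rose by 0.75 over the mean of both days (adjusted p = 0.0445). It was 5.50 to 7.26 in day 30 mo-KCs, 6.82 to 7.49 in day 15 mo-KCs and 5.48 to 6.43 in em-KCs. Ccr1 and Ccr1l1 are similar in sequence and their probes may read both in part. Ccr7, which guides dendritic cells to lymph nodes, differed by -0.39 at day 30 (adjusted p = 0.0853 from limma). Of 7 atypical receptors, among them the scavengers of chemokines, 0 were called at either day by both tests, with 1 at an unadjusted p under 0.05 at each day. Of 9 receptors for other attractants, Ptafr, the receptor of platelet-activating factor, fell by 0.79 at day 30 (adjusted p = 0.0279 from limma), a call that the methods' t-test did not make, and none was called at day 15 by either test, with 0 at an unadjusted p under 0.05.

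The ligands and the machinery below the receptors gave no calls. Of 14 chemokines and chemerin that bind these receptors, 0 were called at either day by limma or the t-test, with 0 at day 30 and 2 at day 15 at an unadjusted p under 0.05. Their differences were -0.43 to 0.16 at day 30 and -0.24 to 1.39 at day 15. Ccl4 (1.39, adjusted p = 0.528) and Ccl3 (1.28, adjusted p = 0.877) were the highest at day 15, and both also differed among em-KCs, with -1.72 and -2.23 in WT against the other em-KCs (adjusted p = 0.0101 and 0.0168 from limma). Of 26 genes of signalling below the receptors (G proteins, arrestins, receptor kinases and RGS proteins), 0 were called at either day by both tests, with 4 at day 30 and 2 at day 15 at an unadjusted p under 0.05. Rgs1, which ends G protein signals, had the largest difference of them at day 15 (0.89, adjusted p = 0.739 from limma).

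The receptors were set beside markers of other cells that carry them. Eosinophils carry CCR3, and of 8 eosinophil markers none was called at either day by limma or the t-test, nor had any an unadjusted p under 0.05. The mean of these markers, such as the granule proteins Epx and Prg2, was 4.88 to 5.06 in day 30 mo-KCs, 4.86 to 5.06 in day 15 mo-KCs and 4.85 to 5.28 in em-KCs. Epx was on average 4.50 in day 30 mo-KCs, 4.61 in day 15 mo-KCs and 4.66 in em-KCs, and SiglecF+ cells, which include eosinophils, were gated out. Basophils and mast cells also carry CCR3, and 13 of their markers averaged 4.54 to 4.71, 4.48 to 4.59 and 4.51 to 4.62 in the same order, with none called and none at an unadjusted p under 0.05. The part of these cells in the Ccr3 values was not tested.

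Monocytes carry CCR2 and CX3CR1. Of 14 measured monocyte markers, Ms4a4c, a membrane protein of monocytes, rose by 0.76 at day 30 (adjusted p = 0.0193 from limma), which the methods' t-test did not call, and differed by 0.74 at day 15 (adjusted p = 0.115). None was called at day 15 by limma or the t-test, with 3 at an unadjusted p under 0.05. The mean of the 14 was 7.25 to 7.29 in day 30 mo-KCs, 7.32 to 7.44 in day 15 mo-KCs and 7.15 to 7.48 in em-KCs. The differences over the 14 were -0.67 to 0.76 at day 30 and -0.66 to 1.01 at day 15. Plac8, which is high in Ly6Chi monocytes, had a difference of 0.64 at day 30 (limma, adjusted p = 0.164) and 0.60 at day 15 (adjusted p = 0.650), whereas F13a1, Vcan and Chil3, also transcripts of Ly6Chi monocytes, differed by -0.16, 0.07 and -0.18 at day 15. The part of monocyte transcripts in the Ccr2 and Cx3cr1 values was not tested. Ly6C+ cells were gated out. Neutrophil markers (13) gave no call at either day by both tests, with 5 at day 30 and 1 at day 15 at an unadjusted p under 0.05.

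Cx3cr1 is also carried by macrophages of other sites, such as the liver capsule. Of 11 markers of capsular and other resident macrophages, Cx3cr1 among them, 2 rose at each day (limma, and the methods' t-test also called 2), Cx3cr1 itself and Cd207, a lectin of Langerhans cells (1.45 at day 30 and 1.20 at day 15). Over the mean of both days the MHC class II gene H2-Aa rose too, by 0.32 (adjusted p = 0.0309 from limma). The mean over the 11 was 9.12 to 9.33 in day 30 mo-KCs, 9.37 to 9.54 in day 15 mo-KCs and 8.86 to 9.18 in em-KCs. Cx3cr1 itself is part of that mean. The median difference over the 11 was -0.0063 at day 30 and 0.20 at day 15. Other members of the list, such as Folr2 and Lyve1, were not called, and the part of such cells in the Cx3cr1 values was not tested.

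Ccr1, Ccr3 and Ccr2 lie in 1 cluster of receptor genes on chromosome 9. Of 15 genes that start within 300 kb of the start of Ccr3 in the RefSeq gene table, 8 were measured by a probeset of a single gene. At day 15, 3 of these 8 rose, Ccr1 (-55.7 kb), Ccr3 and Ccr2 (84.1 kb), and at day 30 only Ccr3. Ccr1l1 (-41.4 kb), between them, is described above. On the far side of Ccr1, Xcr1 (-166 kb), Cxcr6 (-211 kb), Fyco1 (-228 kb) and Ccr9 (-251 kb) had differences of -0.34 to 0.23 at day 15, and none was called. Cx3cr1 and Ccrl2 lie on the same chromosome outside this window.

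**Figure D5:**
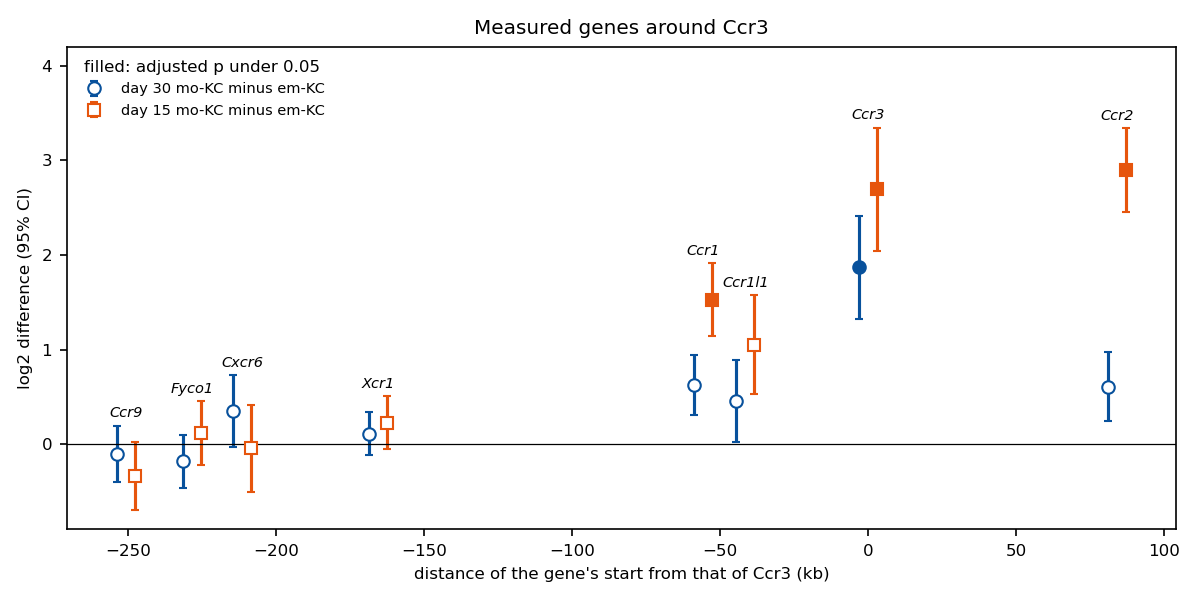
Log2 differences with 95% confidence intervals from limma (vertical axis) of the 8 measured genes by the distance of their start from that of Ccr3 in kb (horizontal axis), for day 30 mo-KCs minus em-KCs and day 15 mo-KCs minus em-KCs, drawn side by side and filled where the adjusted p was under 0.05. The filled points are Ccr1, Ccr3 and Ccr2 at day 15 and Ccr3 at day 30, and the 4 genes at the left lie between -0.34 and 0.35.

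The 250 bases before a RefSeq transcript start of each receptor that rose at day 15 are given to show what these members share in sequence (RefSeq promoter windows, GRCm38.p6, 1 window each for these 4 genes). For Ccr2 and Ccr3 this start lies inside the gene span given above, which begins further upstream, so that their windows lie inside it too. They are Ccr2 at chr9:124101933-124102182 (+ strand), Ccr3 at chr9:124021721-124021970 (+), Cx3cr1 at chr9:120068297-120068546 (-) and Ccr1 at chr9:123968693-123968942 (-), read on the strand of the gene. Capitals mark matches on either strand to motifs of transcription factors. The core of the site of PU.1, a factor that macrophages need to develop, was searched as GAGGAA. The site of GATA factors, which in mice act in several blood lineages, was searched as AGATAA. The site of AP-1, the dimer of Fos and Jun proteins, was searched as TGANTCA.
Ccr2: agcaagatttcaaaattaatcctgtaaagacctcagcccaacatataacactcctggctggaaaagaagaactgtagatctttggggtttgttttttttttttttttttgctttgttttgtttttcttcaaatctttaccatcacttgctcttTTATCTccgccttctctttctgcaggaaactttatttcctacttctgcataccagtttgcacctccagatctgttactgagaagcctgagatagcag
Ccr3: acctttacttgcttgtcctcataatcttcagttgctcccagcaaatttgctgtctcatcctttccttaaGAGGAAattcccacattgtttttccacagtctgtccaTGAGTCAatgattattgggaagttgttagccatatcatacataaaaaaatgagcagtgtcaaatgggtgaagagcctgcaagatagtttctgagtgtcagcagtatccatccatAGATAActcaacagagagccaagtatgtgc
Cx3cr1: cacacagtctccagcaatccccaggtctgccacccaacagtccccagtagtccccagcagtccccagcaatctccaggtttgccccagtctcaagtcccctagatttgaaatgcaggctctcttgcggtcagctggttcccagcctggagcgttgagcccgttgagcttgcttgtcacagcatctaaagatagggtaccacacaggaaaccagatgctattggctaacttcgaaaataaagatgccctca
Ccr1: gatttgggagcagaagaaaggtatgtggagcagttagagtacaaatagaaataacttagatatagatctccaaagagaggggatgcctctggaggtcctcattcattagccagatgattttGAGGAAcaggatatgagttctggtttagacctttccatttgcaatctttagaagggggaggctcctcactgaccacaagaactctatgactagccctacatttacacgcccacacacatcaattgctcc

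The Ccr3 window held all 3 kinds of match, which began at -181 (PU.1), -144 (AP-1) and -30 (GATA) bases from that transcript start. The Ccr1 window held 1 PU.1 match, the Ccr2 window 1 GATA match on the opposite strand and the Cx3cr1 window none. The C/EBP motif TTGCNNAA was in none of the 4. Over 27025 windows of the same length, 1 per gene, 23.1% held the PU.1 core, 10.3% the GATA motif, 6.87% the AP-1 motif and 9.55% the C/EBP motif. No marked matches overlapped. Among all 7 receptors 3 held the PU.1 core (Ccr1, Ccr3 and Cmklr1) and 2 the GATA motif (Ccr2 and Ccr3), so the receptors that rose shared none of the motifs among all of them. A match only says that these letters occur.

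The genes whose profile was most like that of each receptor over the 19 arrays were compared by Pearson's correlation of log2 values, among 2903 or 2904 genes with an SD of at least 0.3. For Ccr2 they were Ptgs2 (0.92), the adhesion receptor Adgrl3 (0.89) and Cx3cr1 (0.86). For Cx3cr1 they were Ccr1 and the heparan sulfatase Sulf2 (0.88 each) and Ccr2 (0.86), and for Ccr1 they were Sulf2 (0.89), Cx3cr1 (0.88) and the phosphatase Ptpn7 (0.83). Cx3cr1 was thus among the nearest genes of both Ccr1 and Ccr2, which did not name each other. Without group means, the correlations of these named pairs were 0.22 to 0.48.

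Ccr3 had other partners, the tetraspanin gene Tspan32 (0.88), the MHC class II gene H2-Eb1 (0.87) and the leukotriene hydroxylase Cyp4f18 (0.86). Tspan32 differed from em-KCs by 1.97 at day 30 and 1.85 at day 15, so that, unlike Ccr2, it was about as high at both days. For Ccrl2 the nearest were Ccnl1, the cytokine gene Il1b and Smc4 (0.91 each), and for Cxcr4 they were Ccnl1 (0.87), Dnmt3aos (0.86) and Scp2 (0.85). For Cmklr1 they were Golga5 (0.84), Helz2 (0.77) and the endothelin-converting enzyme Ece1 (0.73). Without group means, the partners of Ccr3 had 0.35 to 0.46, and those of Ccrl2, Cxcr4 and Cmklr1 had 0.71 to 0.94.

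Among the receptors themselves, Ccr1, Ccr2, Ccr3 and Cx3cr1 had correlations of 0.74 to 0.88 with each other over the 19 arrays. Once group means were taken out, the same pairs had -0.04 to 0.37, so the likeness lay mostly between the groups. Ccrl2 and Cxcr4 had 0.81 over the arrays and 0.80 without group means, and Ccr3 had 0.64 with Cxcr4 and 0.52 with Ccrl2 without group means. Cmklr1 had -0.27 to -0.20 with the 4 receptors that rose.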

How the data were processed

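Sorted KCs of 19 samples were hybridised to whole-transcript mouse arrays (Affymetrix Mouse Gene 1.0 ST). The deposited values are log2 probeset summaries that the authors obtained with RMA, which subtracts background, quantile-normalizes and takes a robust average over probes. No source used here gives its version. Of 35556 probesets, 21789 had 1 gene symbol in the platform table, 1621 several and 12146 no symbol. Only those with 1 symbol were used. The probeset with the highest mean was kept per gene (19938 genes), after the study's methods.

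One limma 3.58.1 model (lmFit, then eBayes with default settings, R 4.3.3) held all 3 groups. Tests were two-sided, and Benjamini-Hochberg adjusted p-values over all 19938 genes under 0.05 were called. Mo-KCs of both days were taken as the mean of both group means, whereas the methods' t-test pooled their arrays. Comparisons with single conditions used a fit of all 7 conditions, and the test between array sets a fit of group by set. The fit was tested on simulated data. Precision is limited by how few arrays each group holds, and p-values measure the spread between arrays.

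The members, lists and tests were chosen with earlier results of these data known. All members are named, with up to 4 called genes per other list, the 3 most alike genes per member (SD of at least 0.3) and genes within 300 kb of Ccr3. Other genes, such as the highest ligands, were named after their values were seen. Quantile normalization sets all arrays to 1 distribution, so a change common to most genes would not show. Alternatives covered the em-KC arrays, the array set, the replicate number, the probeset, leaving out dim genes, the normalization, the prior on the variance, the t-test of the methods, a hepatocyte covariate and leaving out each array.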

Additional observations from a re-analysis of the deposited data

Results flagged for a closer look

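The difference of Ccr2 from em-KCs was not the same at both days, and the test of that difference itself passed the threshold. Day 30 mo-KCs were below day 15 mo-KCs by a log2 difference of -2.29 (adjusted p = 2.7e-05 from limma), and all 5 day 30 arrays lay below all 3 day 15 arrays. Leaving out any single array gave -2.45 to -2.14. The cause of the difference was not tested.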

How the results depend on the processing

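All 4 rises at day 15 and the Ccr3 rise at day 30 passed in every alternative run, also without any single array, apart from Ccr1, which the filter on dim genes dropped. The Cx3cr1 rise at day 30 was 0.57 within the 6 arrays (adjusted p = 0.121), which left 1 receptor called. For mo-KCs of both days the methods' t-test pooled all 8 mo-KC arrays, which is another contrast than the mean of the group means. By it Ccr2 had 1.47 (adjusted p = 0.105 from the t-test). Between the days Ccr2 had -2.29 (adjusted p = 0.690 from the t-test), which left 0 receptors called between the days. The cause was not tested.

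Differences that missed the threshold changed sign. Ccrl2 at day 30 was -0.21 against the KC-DTR colony only and -0.22 with a hepatocyte covariate (mean over 16 hepatocyte markers of 7.66 to 9.03 in day 30 mo-KCs, 7.84 to 8.25 in day 15 mo-KCs and 7.92 to 9.94 in em-KCs), and -0.11 to 0.33 with single arrays left out, below 0 without day 30 mo-KC replicate 1. Cxcr4 over both days was -0.039 and -0.059 under the same alternatives, and at day 30 it was 0.0069 within the 6 arrays and 0.032 with the replicate block. Cmklr1 at day 30 was 0.080 within the 13 arrays. Between the days Cmklr1 was 0.19 within the 13 arrays, 0.050 when the set entered as a block and 0.063 with the replicate block, and -0.11 to 0.011 with single arrays left out, above 0 without day 30 mo-KC replicate 5.

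The count of all genes called at day 30, 157, was 86 against untreated em-KCs, 65 within the 13 arrays, 827 within the 6, 514 when the set entered as a block, 49 with the replicate block, 84 by the t-test and 611 with the hepatocyte covariate. With single arrays left out it was 93 to 316, with the counts furthest from 157 when 1 of the 5 day 30 arrays was left out (305 and 316 without replicates 1 and 2, 93, 93 and 98 without replicates 3, 4 and 5). At day 15, 100 became 231 within the 13 arrays, 168 when the set entered as a block, 66 by the t-test and 57 to 111 with single arrays left out, lowest without day 15 mo-KC replicate 3.

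No label says whether the replicate numbers pair the samples. Same-numbered arrays, taken as deviations from their condition means, had correlations of -0.12 to 0.15 (36 pairs, not independent of each other). They were not set against differently numbered arrays, so these values cannot settle the pairing. The replicate block changed no call of a receptor.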
